A study of Homo sapiens with 6 samples.

Results

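The genes described here sort membrane proteins inside the cell: the sorting nexins, the ESCRT and retromer complexes, and the VPS and COMMD genes that carry the name of the same machinery. They were chosen by gene symbol. A gene was a member where its symbol starts with SNX, VPS, CHMP or COMMD followed by a digit, or is TSG101, HGS, STAM, STAM2, CCDC22 or CCDC93. This gave 91 of the 18132 genes measured, read by 265 of 49395 probe sets. The symbols used no measured value, but the family was picked with results of this same comparison known, so its differences and counts are given as a description.

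Cultured cells labelled TPC-1, a human line of papillary thyroid carcinoma, received a lentivirus that carried FAM60A shRNA or, in the other group, control shRNA. RNA of 3 samples with FAM60A shRNA and 3 with control shRNA was read on Affymetrix arrays, 1 array per sample. Nothing states that the samples came from separate cultures, so a p-value measures only the spread between these samples, and 3 arrays per group limit the precision. Each value is a log2 expression value relative to the median of its probe set over the 6 arrays. A value therefore says how an array differs from the others and not how abundant a transcript is.

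Every title names TPC-1, but the extraction protocol names DLD1, a colorectal cancer line. SINHCAF, the current symbol of FAM60A, was 2.36-fold higher in the arrays labelled FAM60A shRNA, with values of 0.63, 0.57 and 0.60 there and of -0.58, -0.66 and -0.68 in the arrays labelled control shRNA. The gene thus ran against its label, and every "higher", "lower", "rose" and "fell" below is one of the arrays labelled FAM60A shRNA relative to those labelled control shRNA. Whether the labels were exchanged was not tested, and an exchange would turn the direction of every difference given here. Of 16 intestinal markers measured, 9 rose, 56.2%, and 1 fell, 6.25%, against 19.8% higher and 25.0% lower of all genes. The mean of these 16 lay between 0.27 and 0.29 in the arrays labelled FAM60A shRNA. It lay between -0.31 and -0.27 in those labelled control shRNA. The defining markers CDX2, CDH17 and KRT20 rose and VIL1 did not pass. Of 12 thyroid markers, 0 rose and 1 fell, 8.33%, and none of the defining PAX8, NKX2-1, FOXE1 and TG passed. In the level classes described below, 21 of the 35 thyroid probe sets and 12 of the 29 intestinal ones lay in the lowest class. For the defining thyroid markers these were 1 of 3 for TG, 1 of 4 for PAX8, 1 of 2 for NKX2-1 and 0 of 1 for FOXE1. All 3 probe sets of VIL1 lay there too, as did the single ones of LGALS4, MUC2 and PHGR1, which rose. At level 8 or more lay the single probe sets of CDX2 and KRT20 and 2 of the 4 of CDH17. None of TG, PAX8, NKX2-1 and FOXE1 had a probe set at that level. Of all 16 intestinal markers 3 had one there, and of the 12 thyroid markers 1. The part of these marker shifts in the results was not tested. In RNA of whole cultures, fewer cells of a kind and less RNA per cell cannot be told apart. The 3′ minus 5′ signals of GAPDH and ACTB differed by -0.012 and -0.029 (log2) between the labels.

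Membrane proteins that enter the cell reach endosomes, where they are either degraded or returned. The ESCRT complexes act in order on ubiquitinated cargo, from ESCRT-0 to ESCRT-III, and pinch it into vesicles that go to the lysosome. ESCRT-III also cuts membranes in cell division and nuclear envelope repair. Retromer, retriever and the sorting nexins, which hold phosphoinositide lipids through a PX domain, carry cargo back to the plasma membrane or the Golgi. Tethering complexes then dock the carriers at their targets before fusion.

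More of these genes fell than rose. At an adjusted p under 0.05 (limma), 50 of the 91 fell, 54.9%, against 25.0% of all 18132 genes, and 15 rose, 16.5%, against 19.8% of all genes. In either direction 65 passed, 71.4%, against 44.9% of all genes. The median log2 difference of the 91 genes was -0.14, and that of all genes was -0.012. The values of the labels did not overlap in 74 of the 91 genes, 81.3%, against 53.2% of all genes. Most differences were small. A difference of at least 0.5 on the log2 scale was reached by 15 genes that fell and 2 that rose, 18.7% in all, against 9.59% of all genes. At least 2-fold changes were seen in 2 members, SNX16 and SNX4, which is 2.20% of the members, against 1.49% of all genes.

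**Figure D1:**
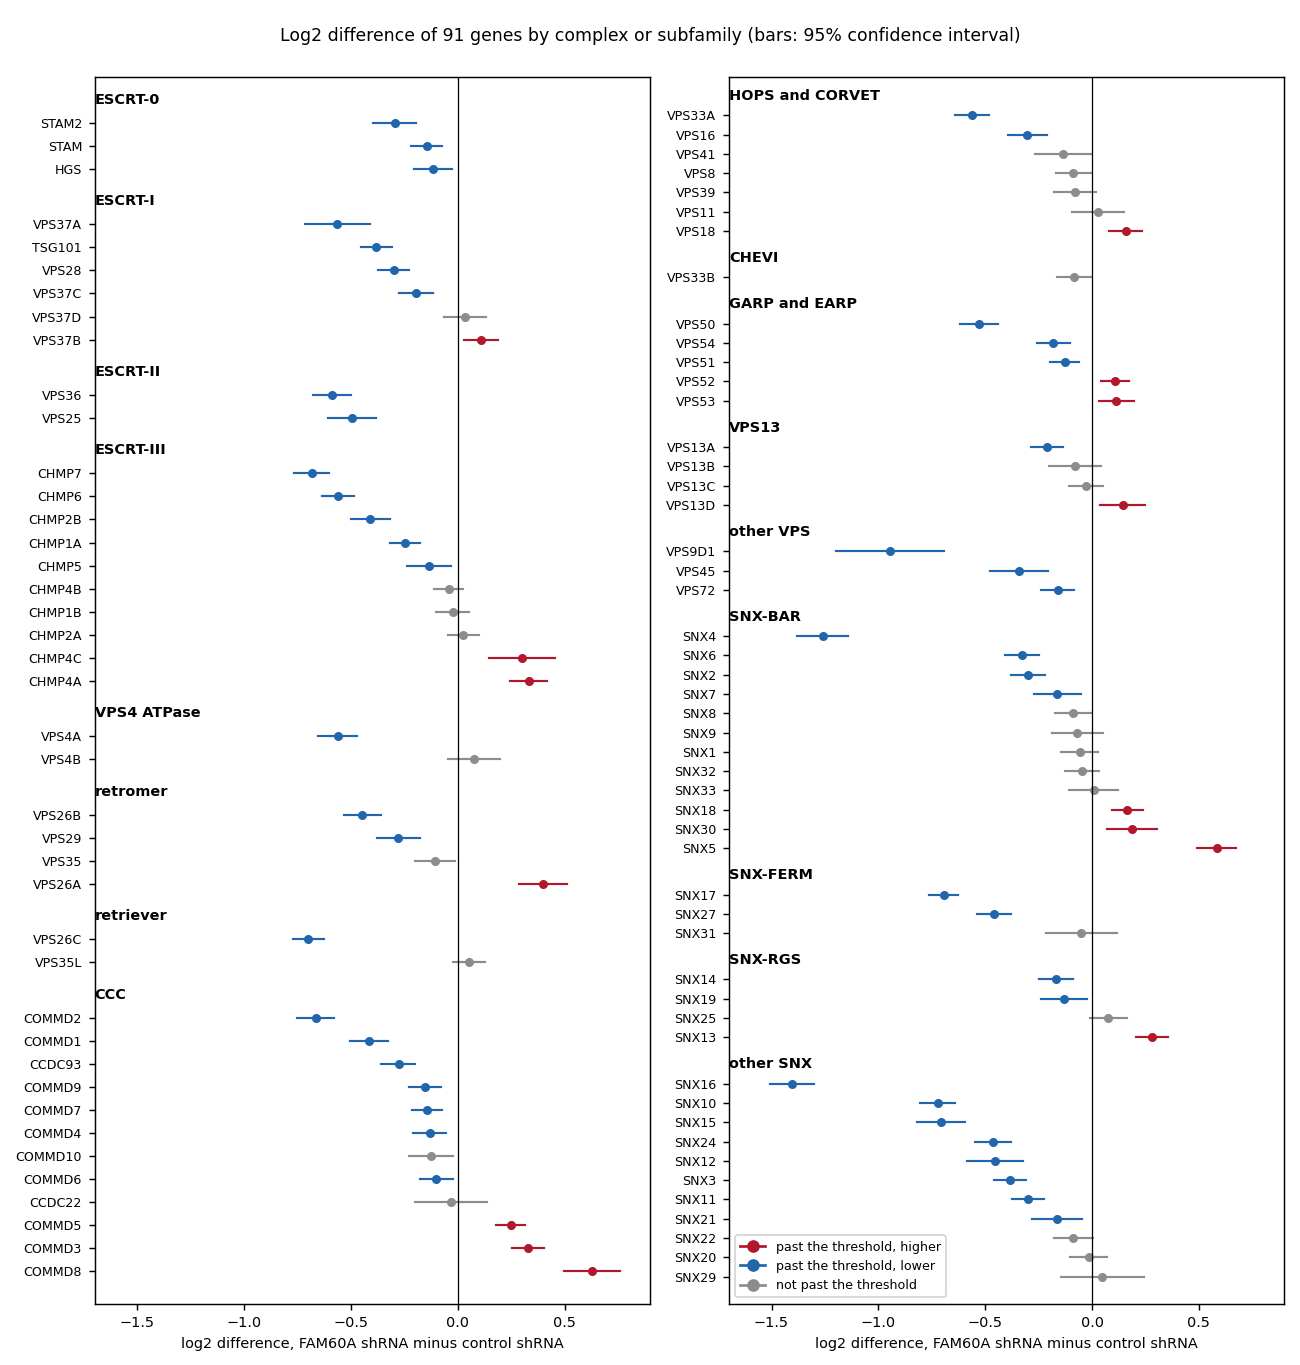
Log2 difference of each of the 91 genes, FAM60A shRNA minus control shRNA, by complex or subfamily. Points are the differences, bars their 95% confidence intervals (limma, n = 3 per group), and colours show genes that passed the threshold higher (15), lower (50) or not (26).

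The share of calls depended on signal level, which the rounding of the deposited values shows as a coarse class. Of the genes with a probe set in the class of log2 level 8 or more, 36.7% of all 7266 fell and 27.9% rose. In all 64.5% of them passed. Among the 62 members in that class, 39 fell, 62.9%, and 9 rose, 14.5%. Of the 10866 genes with no probe set at that level, 17.3% fell, 14.5% rose and 31.7% passed in either direction, whereas 11 of the 29 members there fell, 37.9%, and 6 rose, 20.7%. The falls were thus more frequent among the members in both classes of level, as a description with no test.

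**Figure D2:**
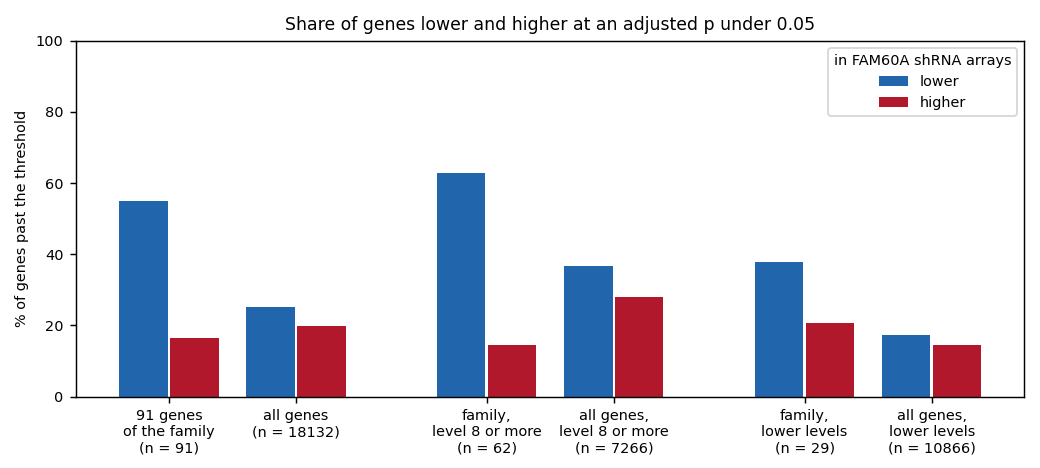
Percent of genes lower and higher at an adjusted p under 0.05 among the members and among all genes, for all levels together, for genes with a probe set at log2 level 8 or more, and for the others. Lower genes make up 54.9% of the 91 members and 25.0% of all genes.

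SNX16 and SNX4, both sorting nexins of endosomes, had the largest falls. SNX16, which carries a PX domain and a coiled coil, had log2 values of -0.63, -0.66 and -0.74 in the arrays labelled FAM60A shRNA, against 0.68, 0.72 and 0.79 in those labelled control shRNA. The groups stood far apart next to the spread within each. Its log2 difference was -1.41 (SE 0.043), a 2.65-fold lower signal. All 4 of its probe sets fell, by -2.03, -1.68, -1.48 and -0.43. The last of these and the one at -1.48 had the lowest class of signal, where 16 of the 17 target-free control tags also lay. Without that class the difference of SNX16 was -1.86.

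SNX4, a sorting nexin with a membrane-bending BAR domain that returns the transferrin receptor to the cell surface, had values of -0.58, -0.70 and -0.56 under the FAM60A shRNA label and of 0.72, 0.60 and 0.64 under the control shRNA label. Its log2 difference was -1.26 (SE 0.050), a 2.40-fold lower signal, and its 2 probe sets lay at -1.30 and -1.23. VPS9D1, which has a VPS9 domain, had the third-lowest difference at -0.95 (SE 0.11). Its 1 probe set gave -0.70, -0.37 and -0.36 in the arrays labelled FAM60A shRNA and 0.43, 0.62 and 0.36 in those labelled control shRNA. The arrays of a group thus spread more for VPS9D1 than for the sorting nexins, though the groups did not overlap.

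The largest rises were smaller than the largest falls. COMMD8, a COMM-domain subunit of the CCC complex, had values of 0.38, 0.25 and 0.25 in the arrays labelled FAM60A shRNA, against -0.25, -0.41 and -0.36 in those labelled control shRNA. Its log2 difference was 0.63 (SE 0.055), a 1.55-fold higher signal from 1 probe set. SNX5, a cargo-binding sorting nexin with a BAR domain, had values of 0.33, 0.31 and 0.23, against -0.26, -0.29 and -0.33 under the control shRNA label. The difference of SNX5 was 0.58 (SE 0.039), and its 4 probe sets rose by 0.23 to 0.83. After these came VPS26A (0.40), CHMP4A (0.33), COMMD3 (0.33) and CHMP4C (0.30).

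**Figure D3:**
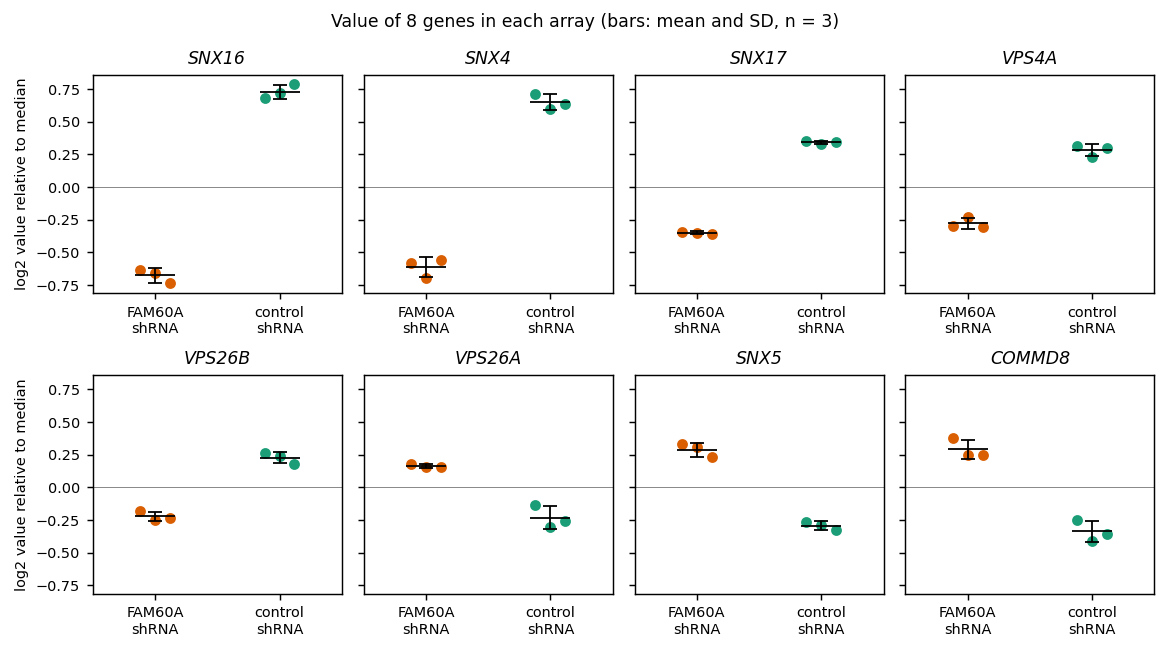
Log2 value relative to the probe set median in each array, as points, for 8 genes, with the mean and SD of the 3 arrays per group. SNX16, SNX4, SNX17, VPS4A and VPS26B are lower and VPS26A, SNX5 and COMMD8 higher under the FAM60A shRNA label, with no overlap between groups.

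Promoters from RefSeq (GRCh38.p14) were at hand for 70 of the 91 genes, each running from 250 bases before to 50 bases after the start. They were searched on both strands for CACGTG, the core of the E-box that MYC and the lysosomal regulator TFEB can bind, and for TGACGTCA, the cyclic AMP response element. The motifs share the letters ACGT, but no stretch can be both. CACGTG was found in 14 of the 70, 20.0%, against 10.9% of the 14425 measured genes with a promoter and 8.77% of all 27305 genes with one. It stood in 4 of 9 promoters of genes that rose, 6 of 40 of genes that fell and 4 of 21 of genes that did not pass. TGACGTCA was found in 3 of the 70, 4.29%, against 3.11% of the 14425 measured genes and 2.25% of all genes, and in 2 of the 9 that rose and 0 of the 40 that fell. VPS37B, which rose, holds both. The 250 bases before the start had a median GC content of 64.4% in the members and 58.0% in all genes. These letter matches are no evidence of binding. The 250 bases before the start are shown for 4 of the 6 genes with the largest rise, which hold a motif in capitals. VPS26A and CHMP4C, the others of these 6, had no promoter at hand. SNX4, which fell and holds neither motif, is shown too. The genes that fell and hold CACGTG are not shown: VPS26C (-0.70), VPS36 (-0.59), VPS50 (-0.53), VPS16 (-0.30), COMMD9 (-0.16) and COMMD4 (-0.13). COMMD8 (chr4:47463703-47463952, minus strand) has CACGTG from 22 bases before the start, COMMD3 (chr10:22316138-22316387, plus strand) from 8 and CHMP4A (chr14:24213489-24213738, minus strand) from 114. COMMD8 holds a further CACGTG in the 50 bases searched after the start, outside the stretch shown. SNX5 (chr20:17968795-17969044, minus strand) has TGACGTCA from 69 bases before, and SNX4 lies at chr3:125520203-125520452 on the minus strand.
COMMD8: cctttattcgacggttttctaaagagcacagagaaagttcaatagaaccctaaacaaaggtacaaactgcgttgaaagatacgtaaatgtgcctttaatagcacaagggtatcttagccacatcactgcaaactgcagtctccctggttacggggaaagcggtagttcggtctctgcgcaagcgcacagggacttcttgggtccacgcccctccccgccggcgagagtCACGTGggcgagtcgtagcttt
COMMD3: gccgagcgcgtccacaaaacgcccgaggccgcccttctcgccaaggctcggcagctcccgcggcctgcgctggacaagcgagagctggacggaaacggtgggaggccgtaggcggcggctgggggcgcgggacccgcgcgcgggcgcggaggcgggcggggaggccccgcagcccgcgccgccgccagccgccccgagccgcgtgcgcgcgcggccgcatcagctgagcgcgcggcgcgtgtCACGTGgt
CHMP4A: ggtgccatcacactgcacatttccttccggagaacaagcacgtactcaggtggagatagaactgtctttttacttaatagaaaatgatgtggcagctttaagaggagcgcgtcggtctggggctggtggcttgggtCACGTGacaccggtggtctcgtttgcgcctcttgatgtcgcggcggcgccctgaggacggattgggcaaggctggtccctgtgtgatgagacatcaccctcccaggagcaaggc
SNX5: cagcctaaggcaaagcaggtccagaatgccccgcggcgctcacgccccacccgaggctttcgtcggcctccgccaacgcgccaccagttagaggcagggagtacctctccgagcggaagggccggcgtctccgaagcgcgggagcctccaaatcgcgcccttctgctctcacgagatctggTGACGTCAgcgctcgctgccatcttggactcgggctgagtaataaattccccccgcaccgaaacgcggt
SNX4: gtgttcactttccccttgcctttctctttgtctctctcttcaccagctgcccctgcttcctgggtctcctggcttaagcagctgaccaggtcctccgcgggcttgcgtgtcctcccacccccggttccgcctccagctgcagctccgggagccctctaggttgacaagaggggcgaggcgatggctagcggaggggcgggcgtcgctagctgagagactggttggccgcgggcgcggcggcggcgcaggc

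Of the 23 ESCRT and VPS4 genes, 15 fell, 65.2%, 3 rose and 5 did not pass, against 25.0% lower and 19.8% higher of all genes, with a median log2 difference of -0.20. ESCRT-0 binds ubiquitinated cargo first, through HGS and either STAM or STAM2, and all 3 genes fell. STAM2 had values of -0.076, -0.20 and -0.19, against 0.17, 0.14 and 0.12 under the control shRNA label, a difference of -0.30 (SE 0.043). Its 4 probe sets disagreed in size, with -0.73 and -0.41 past the threshold and -0.037 and -0.016 not. STAM had -0.035, -0.069 and -0.074, against 0.11, 0.089 and 0.064, a difference of -0.15 (SE 0.031). HGS had -0.13, -0.027 and -0.089, against 0.041, 0.013 and 0.054 under the control shRNA label. The HGS groups lay close together, with a difference of -0.12 (SE 0.037), and neither of its 2 probe sets passed alone.

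In ESCRT-I, which takes the cargo over, 4 of 6 genes fell, 66.7%, and 1 rose, 16.7%, against 25.0% and 19.8% of all genes. TSG101, the subunit that recognises ubiquitin and viral late domains, had values of -0.17, -0.20 and -0.20, against 0.20, 0.20 and 0.18 in the arrays labelled control shRNA. The arrays of each group agreed closely, the difference was -0.38 (SE 0.030), and all 3 probe sets fell. VPS28, another core subunit, had a difference of -0.30. The 4 VPS37 genes encode alternative versions of the same subunit and did not move alike. VPS37A (-0.57) and VPS37C (-0.20) fell, VPS37B rose by 0.11, and VPS37D had a difference of 0.033 and did not pass. In VPS37A, replicate 3 labelled FAM60A shRNA lay lowest at -0.43, against -0.20 and -0.26 in the other FAM60A shRNA arrays and 0.33, 0.25 and 0.23 in the control shRNA arrays.

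ESCRT-II, the bridge to ESCRT-III, had the lowest median of the ESCRT complexes, -0.54, with both measured members lower, against 25.0% of all genes. VPS36 had values of -0.30, -0.36 and -0.29, against 0.32, 0.23 and 0.27 under the control shRNA label, a difference of -0.59 (SE 0.037). Of its 8 probe sets, 6 in the class of level 4 to 8 fell by -1.12 to -0.42, and 2 in the lowest class, at 0.034 and 0.076, did not pass. Averaging all 8 thus gives a smaller difference than the 6 alone. VPS25 had -0.19, -0.26 and -0.20, against 0.35, 0.19 and 0.30, a difference of -0.50 (SE 0.047). SNF8, the third ESCRT-II subunit, which the name rule leaves out, fell too, with a difference of -0.23.

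ESCRT-III, the filaments that narrow the membrane neck, split by subunit. Of 10 genes, 5 fell, 2 rose and 3 did not pass. CHMP7, which recruits ESCRT-III to the nuclear envelope, had values of -0.33, -0.31 and -0.36, against 0.40, 0.35 and 0.31 under the control shRNA label, a difference of -0.68 (SE 0.035). CHMP6, which links ESCRT-II to the filament, had -0.25, -0.28 and -0.30, against 0.31, 0.27 and 0.27, and fell by 0.56. CHMP2B fell by 0.41, CHMP1A by 0.25 and CHMP5 by 0.14. The 2 probe sets of CHMP5 disagreed, at -0.31 and, in the lowest level class, 0.035. Without the probe sets marked x_at or s_at only the one at 0.035 remained and CHMP5 did not pass, and without the lowest class it had -0.31. Of the 3 CHMP4 genes, which encode the main filament protein, 2 rose. CHMP4A had 0.23, 0.15 and 0.14, against -0.15, -0.14 and -0.18, and CHMP4C, which acts in the abscission checkpoint of dividing cells, had 0.26, 0.054 and 0.14, against -0.16, -0.23 and -0.054. The groups overlapped in neither, with differences of 0.33 (SE 0.037) and 0.30 (SE 0.065), while CHMP4B had a difference of -0.044 (95% confidence interval -0.11 to 0.024) and did not pass. CHMP1B (-0.026) and CHMP2A (0.025) did not pass either.

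VPS4 is the ATPase that takes ESCRT-III apart, and 1 of its 2 genes fell, against 25.0% of all genes. VPS4A had values of -0.30, -0.23 and -0.31, against 0.32, 0.23 and 0.30 in the arrays labelled control shRNA, a difference of -0.56 (SE 0.039). VPS4B had 0.042, -0.041 and 0.082, against 0.039, -0.066 and -0.12, and the groups overlapped. Its difference was 0.075 with a 95% confidence interval of -0.048 to 0.20 and did not pass.

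Retromer, the complex of VPS35, VPS29 and either VPS26A or VPS26B, had its alternative VPS26 subunits on opposite sides. VPS26A had values of 0.18, 0.16 and 0.15 in the arrays labelled FAM60A shRNA, against -0.14, -0.31 and -0.26 in those labelled control shRNA. VPS26B had -0.18, -0.25 and -0.24, against 0.27, 0.24 and 0.18. Neither gene overlapped between groups. The differences were 0.40 (SE 0.048) for VPS26A, with all 4 probe sets higher, and -0.45 (SE 0.037) for VPS26B, with both probe sets lower. VPS29, a subunit that retromer and retriever share, had -0.087, -0.17 and -0.18, against 0.20, 0.12 and 0.092, a difference of -0.28 (SE 0.042). VPS35, the scaffold, had -0.0020, -0.071 and -0.075, against 0.11, 0.062 and 0.0020. The groups of VPS35 touched without overlap, and its difference of -0.11 (95% confidence interval -0.20 to -0.012) did not pass over all genes (limma, adjusted p = 0.069).

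Retriever and the CCC complex recycle integrins and lipoprotein receptors together. VPS26C, the VPS26-like subunit of retriever, had values of -0.35, -0.34 and -0.37, against 0.38, 0.32 and 0.34 under the control shRNA label. This was the lowest difference of the retrieval complexes at -0.70 (SE 0.031), and all 3 probe sets fell. VPS35L, its scaffold, had a difference of 0.051 and did not pass. SNX17, the adaptor that brings cargo to retriever, had -0.34, -0.35 and -0.36, against 0.35, 0.33 and 0.35. The 7 probe sets of SNX17, all at level 8 or more, lay between -0.75 and -0.63 with a gene difference of -0.69 (SE 0.029), and the 7 readings of the transcript lay close together.

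Of the 12 CCC genes, 7 fell, 58.3%, 3 rose, 25.0%, and 2 did not pass, with a median of -0.13. Of all genes 25.0% fell and 19.8% rose. COMMD2 had the lowest difference, -0.67 (SE 0.037), with values of -0.34, -0.38 and -0.29, against 0.36, 0.30 and 0.34. COMMD1, known for copper transport and NF-kB control, fell by 0.42 and the coiled-coil subunit CCDC93 by 0.28. Of the 5 probe sets of CCDC93, 4 fell, with -0.60 the lowest. The remaining one, at -0.014, did not pass. COMMD9 (-0.16), COMMD7 (-0.14), COMMD4 (-0.13) and COMMD6 (-0.10) fell by less. COMMD8, COMMD3 and COMMD5 (0.25) rose. COMMD3 had 0.16, 0.15 and 0.15, against -0.19, -0.14 and -0.20, and each group was tight. COMMD10 (-0.13) and CCDC22 (-0.032) did not pass.

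Of the 12 sorting nexins with a BAR domain, 4 fell, 33.3%, 3 rose, 25.0%, and 5 did not pass, shares near the 25.0% lower and 19.8% higher of all genes. Some of them pair to bind cargo: SNX1 or SNX2 pairs with SNX5 or SNX6. SNX5 rose, whereas SNX6 had values of -0.17, -0.14 and -0.13, against 0.17, 0.16 and 0.22 under the control shRNA label, a difference of -0.33 (SE 0.033). SNX2 had -0.20, -0.14 and -0.13, against 0.13, 0.14 and 0.17, a difference of -0.30 (SE 0.034). SNX1 overlapped between the groups and had a difference of -0.058 (95% confidence interval -0.15 to 0.030). SNX18 (0.17) and SNX30 (0.19) also rose and SNX7 (-0.16) fell. Only 2 of the 6 probe sets of SNX18 passed, at 0.45 and 0.67, and the other 4 lay between -0.11 and 0.058. With the median of its probe sets in place of their mean, SNX18 had 0.069 and lost its call. SNX8 (-0.089), SNX9 (-0.070), SNX32 (-0.049) and SNX33 (0.0071) did not pass.

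Of the other sorting nexins, SNX17 and SNX27 form with SNX31 the group with a FERM domain. SNX27, which brings cargo to retromer through a PDZ domain, had -0.20, -0.26 and -0.23, against 0.19, 0.23 and 0.26, and fell by 0.46 (SE 0.034). SNX31 (-0.050) did not pass. In the subfamily of 4 named for an RGS domain, SNX14 (-0.17) and SNX19 (-0.13) fell and SNX25 (0.075) did not pass. SNX13 had 0.13, 0.13 and 0.13, against -0.19, -0.13 and -0.13, and rose by 0.28 (SE 0.032). Of the 11 remaining sorting nexins 8 fell, 72.7%, and 0 rose, against 25.0% and 19.8% of all genes, with a median of -0.39. SNX10, mutated in a form of osteopetrosis, had -0.38, -0.39 and -0.34, against 0.40, 0.32 and 0.34, and all 5 of its probe sets fell. Its difference was -0.72 (SE 0.034). SNX15 had -0.41, -0.45 and -0.29, against 0.32, 0.35 and 0.29, a difference of -0.71 (SE 0.047) from 1 probe set. SNX3, the retromer adaptor for the Wnt carrier WLS, had -0.18, -0.18 and -0.22, against 0.22, 0.18 and 0.18, a difference of -0.38 (SE 0.031) with all 4 probe sets lower. SNX24 (-0.46), SNX12 (-0.45), SNX11 (-0.30) and SNX21 (-0.16) fell. Of the 2 probe sets of SNX12, the one at -0.67 passed and the one at -0.24 did not. Only 1 of the 4 probe sets of SNX21 passed, at -0.63, and without the probe sets marked x_at or s_at SNX21 had -0.053 and lost its call. The genes SNX22 (-0.088), SNX20 (-0.015) and SNX29 (0.049) did not pass.

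Tethering complexes, which dock vesicles before fusion, had a median difference of -0.088 over their 13 genes. Of 7 HOPS and CORVET genes, 2 fell, 28.6%, 1 rose, 14.3%, and 4 did not pass, shares near those of all genes (25.0% and 19.8%). VPS33A, the SM protein that templates SNARE pairing, had values of -0.25, -0.33 and -0.32, against 0.28, 0.25 and 0.26, a difference of -0.56 (SE 0.033). VPS16, its binding partner, fell by 0.30, and VPS18 rose by 0.16. VPS41 (-0.14), VPS8 (-0.088), VPS39 (-0.080) and VPS11 (0.028) did not pass, nor did VPS33B (-0.085), a relative of VPS33A in another complex. In GARP and EARP, which dock at the Golgi and at recycling endosomes, 3 of 5 genes fell and 2 rose. These shares are 60.0% and 40.0%, against 25.0% and 19.8% of all genes. VPS50, specific to EARP, had -0.25, -0.31 and -0.28, against 0.19, 0.28 and 0.26 under the control shRNA label, and fell by 0.53 (SE 0.038). VPS54, specific to GARP, fell by 0.18. The shared subunits had differences of -0.13 for VPS51, 0.11 for VPS52 and 0.11 for VPS53. The calls of VPS52 and VPS53, the 2 that rose, were lost without some single arrays, as given below.

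Of the 4 VPS13 genes, which encode lipid transfer proteins, VPS13A fell by 0.21 and VPS13D rose by 0.14. VPS13B (-0.081) and VPS13C (-0.029) did not pass. The shares, 25.0% lower and 25.0% higher, were near the 25.0% and 19.8% of all genes. Without the lowest level class VPS13A had -0.15. VPS45, an SM protein of early endosomes, fell by 0.34. VPS72 fell by 0.16. It shares the name but encodes a histone chaperone for H2A.Z in chromatin remodelling complexes, so it does not belong to the sorting machinery.

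Probe sets of a gene did not always move alike. Of the 265 probe sets, 162 passed in a fit over all probe sets, 125 of them lower and 37 higher. Of the 44988 probe sets with 1 symbol, 41.4% passed in either direction. Of 72 members with several probe sets, 25 had all of them past the threshold in 1 direction. The like share over all genes was not counted. VPS39 had 1 probe set higher (0.17) and 1 lower (-0.29), and VPS13C likewise (0.20 and -0.14). VPS13D had 2 of 5 past the threshold, at 0.29 and 0.69. It lost its call with the median of its probe sets (0.040) and without those marked x_at or s_at (0.11). VPS50 had -0.89, -0.70 and -0.62 past it and 1 at 0.10 not, with the first and last of these in the lowest class. SNX14 had -0.39 at level 8 or more and 0.048 in the lowest class. Only 1 member, SNX31, had every probe set in the lowest class.

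**Figure D4:**
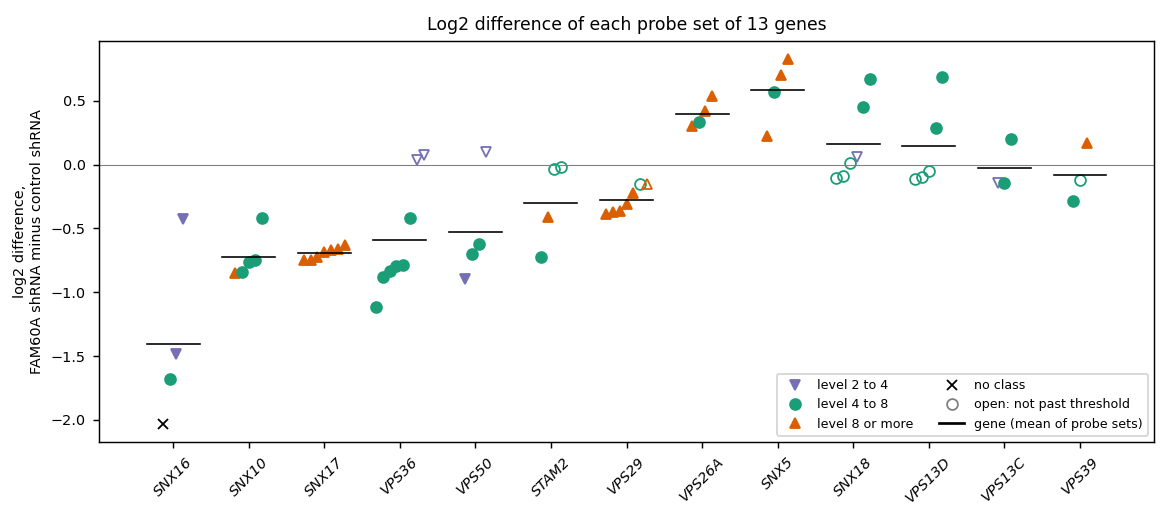
Log2 difference of every probe set of 13 genes, FAM60A shRNA minus control shRNA, with the level class as the symbol and open symbols for those that did not pass. SNX17 has 7 probe sets between -0.75 and -0.63, whereas VPS36, VPS50, STAM2, SNX18 and VPS13D each have some near 0.

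Some of the smaller changes lost their call with 1 array fewer, with little move in their size. Whichever 1 array was left out, 54 of the 65 calls held, 44 of them falls and 10 rises. VPS37B lost its call without any 1 of the 6 arrays (0.085 to 0.12), and HGS without any 1 but replicate 2 labelled FAM60A shRNA (-0.15 to -0.094). COMMD6 lost it without any 1 but replicate 1 labelled FAM60A shRNA (-0.12 to -0.080), and VPS13D without any 1 but replicate 2 of that label (0.10 to 0.18). CHMP5 lost it without replicate 1 or 2 of either label (-0.17 to -0.11). SNX19 lost it without replicate 2 or 3 labelled FAM60A shRNA or replicate 1 or 3 labelled control shRNA (-0.16 to -0.099), as did SNX7 (-0.19 to -0.13) and VPS53 (0.099 to 0.13). SNX21 lost it without replicate 2 labelled FAM60A shRNA or replicate 1 or 2 labelled control shRNA (-0.20 to -0.13). VPS52 lost it without replicate 2 labelled FAM60A shRNA or replicate 2 or 3 labelled control shRNA (0.10 to 0.11), and SNX30 without these or replicate 1 labelled FAM60A shRNA (0.15 to 0.23).

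Other genes of the route, from a list of 36 with names outside the rule, were measured in 30 cases. Of these 12 fell, 6 rose and 12 did not pass. The shares were 40.0% lower and 20.0% higher, against 25.0% and 19.8% of all genes, and the median was -0.054. Of 9 ESCRT partners 0 rose and 5 fell, 55.6%, against 25.0% of all genes. Those that fell include the ESCRT-I subunit MVB12A (-0.45), the deubiquitinase STAMBP (-0.34) and UBAP1 (-0.23). WASHC4, a subunit of the WASH complex that builds actin on endosomes, fell by 0.53, whereas WASHC5 rose by 0.18. The retromer-linked ANKRD50 (-0.35) and TBC1D5 (-0.28), an inhibitor of RAB7, fell, and RAB7A had a difference of 0.11 and rose. Of 8 cargo receptors 4 rose and 2 fell, against 19.8% higher and 25.0% lower of all genes. WLS, which carries Wnt ligands and returns through SNX3 and retromer, rose by 0.60, followed by the iron transporter SLC11A2 (0.16) the mannose 6-phosphate receptor IGF2R (0.14) and the sorting receptor SORL1 (0.12). The copper pump ATP7A (-0.24) and M6PR (-0.10) fell. With 1 array left out, RAB7A lost its call without replicate 1 or 2 labelled FAM60A shRNA or replicate 2 or 3 labelled control shRNA (0.091 to 0.12). IGF2R lost it without replicate 2 labelled FAM60A shRNA or replicate 3 labelled control shRNA (0.12 to 0.16), and M6PR without any 1 but replicate 1 labelled FAM60A shRNA (-0.11 to -0.097). SORL1 lost its call without replicate 1 or 2 labelled FAM60A shRNA or replicate 2 or 3 labelled control shRNA (0.105 to 0.135). SLC11A2 had 0.076 with the median of its probe sets and lost its call.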

How the data were processed

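Expression was measured on Affymetrix arrays in cells labelled TPC-1 (the extraction protocol names DLD1), 3 samples of each shRNA label. The authors deposited log2 expression values made by RMA, per the submitters' processing notes, with a program and chip file "not given in the sources used here". A log base of 2 was assumed. The deposited log2 values are centred on each probe set's median over the 6 arrays, array medians run from -0.015 to 0.010, and 0 values are missing. Arrays carry no read depth, and their number limits the precision.

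The platform's annotation gave the gene symbols. Of the probe sets, 44988 had 1 symbol and 1832 had several, which were not named. A gene is the mean of its probe sets, giving 18132 genes. All were fitted with limma 3.58.1 in R 4.3.3 (lmFit and eBayes, Benjamini-Hochberg adjustment over all genes, threshold 0.05, no filter on low values), and the fit was tested on simulated data. The centred values give no level, so a level class was read from the rounding steps of the values, whose size doubles at levels 2, 4, 8 and 16. Of 5000 simulated probe sets in each class below 16, 95.7% to 97.1% were placed in their class. The simulated levels lay well inside each class, so they do not show how levels near a bound are placed. Steps were tried from the largest down, so values that fall on a larger step by accident are placed in too high a class. The class of 16 or more was not simulated and is not read as a level that high. It took 1386 of the 49395 probe sets, which were counted with those at level 8 or more. Some of these may thus have a lower level.

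The members and gene lists were chosen with earlier results of these data known. The rule for named genes gave SINHCAF and 42 others: the 6 members past the threshold with the largest differences in each direction, the largest in each direction within each complex, all of retromer, ESCRT-0 and VPS4, members with probe sets past it in both directions, and the 3 largest partner genes each way. Other members named were chosen after their values were seen. CHMP3 has only probe sets with several symbols and was not analysed here. The alternatives were other scalings, other summaries of probe sets, other variance models, the replicate number as a block, and each array left out.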

Additional observations from a re-analysis of the deposited data

Results flagged for a closer look

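Of 12 probe sets that carry several gene symbols, 1 of them by the name rule, which entered no gene of the report, 3 were past the threshold with a higher value under the FAM60A shRNA label and 2 with a lower one. Their log2 differences ran from -0.78 to 0.64. Of the 44988 probe sets with 1 symbol, 41.4% passed in either direction, a share near that of these 12. The transcript behind a probe set with several symbols is not settled by its annotation, so none of the 12 is given to a gene.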

How the results depend on the processing

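Over 16 alternatives the number of members lower was 42 to 54, against 50 as reported, and the number higher 10 to 16, against 15. Of the 65 calls 50 held under every alternative that gave a value, 41 of them lower and 9 higher, and 0 turned and passed. SNX15, SNX17, VPS54, COMMD4, COMMD5 and COMMD8 had no value without the probe sets marked x_at or s_at. Beside the 11 genes that lost a call with an array left out, VPS37C and COMMD9 lost theirs without the probe sets marked x_at or s_at, STAM with the probe set of largest variance and SNX18 with the median of probe sets. CHMP5 turned to 0.035 without the probe sets marked x_at or s_at. VPS13C turned to 0.20 with the probe set of largest variance and to 0.030 without the lowest level class. The cause was not tested. Partner genes higher numbered 3 to 6 with 1 array left out, and intestinal markers lower numbered 2 without the lowest level class. With the replicate number as a block, 47 members were lower and 15 higher. Same-numbered arrays of the 2 labels correlated at 0.16, 0.059 and 0.078 after group means were removed. Those with different numbers correlated at -0.105 to 0.040, so each array correlated best with its own number. Whether same-numbered arrays were handled together was not tested. Small differences at the lowest level class are limited by the signal there.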

Other observations

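The share of members that fell is given here for 3 of the chromosomes, picked after the values were seen and with no test. All 5 members on chromosome 2 fell (CCDC93, COMMD1, SNX17, STAM2 and VPS54), where 30.1% of 1134 genes fell. On chromosome 11, 7 of 9 members fell and 0 rose, where 20.2% of 1200 genes fell. On chromosome 15, 1 of 8 members fell and 1 rose, where 28.9% of 536 genes fell. Of all 91 members 54.9% fell. On chromosomes 1 and 17, which were not picked, 4 of 5 members each fell.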
